A study of Mus musculus with 6 samples.

Results

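The autophagy machinery genes were taken from the raw count table by their symbols: the numbered *Atg* genes, the genes for LC3A and LC3B (*Map1lc3a*, *Map1lc3b*), the *Gabarap* genes, *Ulk1*, *Ulk2*, *Wipi1*, *Wipi2* and 10 further genes (*Becn1*, *Sqstm1*, *Nbr1*, *Optn*, *Pik3c3*, *Pik3r4*, *Uvrag*, *Ambra1*, *Rb1cc1* and *Wdr45*). This gave 36 members of the 23159 genes in the table, and all 36 passed the filter on low counts that left 13728 genes for testing. They were compared between label-retaining chondrocytes (LRCs) and non-LRCs of the mouse growth plate. The paper describes LRCs as slow-cycling and non-LRCs as dividing more rapidly. Its labelling of dividing cells differed significantly between them at earlier ages, while at P49, the age used here, it found a trend only. All mice were of the Col2-Q line at P49, homozygous for *Col2a1-tTA* (inserted near *Peli2*), *TRE-H2B-GFP* at the *Col1a1* locus, *Col2a1-creER* and an *R26R* tdTomato reporter. All received doxycycline from P21 to P49, which stops H2B-GFP transcription so that each division dilutes the nuclear label, and tamoxifen at P46 and P47, which turns tdTomato on. Both drivers use a *Col2a1* promoter, so the sort covered CD45-negative cells in which it had been active. LRCs were tdTomato-positive cells with high H2B-GFP (about 10000 cells per library), and non-LRCs were tdTomato-positive cells with middle to low H2B-GFP (about 50000 cells per library). Each of 3 independent experiments pooled several littermates and gave 1 library of each group, so that the 6 libraries formed 3 pairs.

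Autophagy encloses cytoplasm, organelles or tagged cargo in a double membrane, the autophagosome, which then fuses with a lysosome. The ULK kinase complex starts the process, the class III PI3-kinase complex marks the membrane with the lipid PI3P, ATG9 vesicles and ATG2 supply lipid, and 2 linked conjugation reactions attach the ATG8 proteins (LC3 and GABARAP) to the growing membrane, where cargo receptors such as p62 bind them. In the growth plate, autophagy is known for its part in collagen secretion and in the survival of chondrocytes in a tissue without blood vessels. RNA levels do not measure autophagic flux.

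Autophagy and lysosome genes are known targets of TFEB and its relatives, which bind E-boxes with the core CACGTG, so the promoters were searched for these letters. RefSeq windows of 300 bases (GRCm38.p6, 250 before and 50 after the start site) were at hand for 30 of the 36 members. The core CACGTG, which reads the same on both strands, was in the windows of 4 of these 30 genes (13.3%), against 8.09% of all genes with a window. These were *Atg3*, with 2 copies, *Atg5*, *Atg7* and *Atg14*. The upstream part of 3 of them is shown because they act in 1 pathway, the conjugation of ATG8, and yet differed in the sign of their fitted LRC minus non-LRC difference. The differences of *Atg5* and *Atg7* passed none of the tests given below. That of *Atg5* changed sign, from -0.32 to 0.10, when a trend with transcript length and GC content was removed. The upstream part of *Sqstm1*, the member with the smallest p, follows. The run of each window up to the first base that lies in a GENCODE vM21 exon of the gene is printed 5′ to 3′ as the gene reads, with each CACGTG in capitals.
Atg3: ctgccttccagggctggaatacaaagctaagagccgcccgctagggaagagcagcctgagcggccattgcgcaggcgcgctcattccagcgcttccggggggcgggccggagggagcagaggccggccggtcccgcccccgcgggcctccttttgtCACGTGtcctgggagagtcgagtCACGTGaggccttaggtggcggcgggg
Atg5: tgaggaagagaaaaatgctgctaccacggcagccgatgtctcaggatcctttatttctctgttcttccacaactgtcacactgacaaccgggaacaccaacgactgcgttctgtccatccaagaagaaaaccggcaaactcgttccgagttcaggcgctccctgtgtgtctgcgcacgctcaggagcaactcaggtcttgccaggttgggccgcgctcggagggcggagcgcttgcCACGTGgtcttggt
Atg7: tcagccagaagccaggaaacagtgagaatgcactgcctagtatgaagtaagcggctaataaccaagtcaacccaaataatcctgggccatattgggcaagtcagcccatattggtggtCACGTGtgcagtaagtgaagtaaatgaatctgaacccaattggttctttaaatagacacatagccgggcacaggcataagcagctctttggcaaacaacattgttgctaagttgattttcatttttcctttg
Sqstm1: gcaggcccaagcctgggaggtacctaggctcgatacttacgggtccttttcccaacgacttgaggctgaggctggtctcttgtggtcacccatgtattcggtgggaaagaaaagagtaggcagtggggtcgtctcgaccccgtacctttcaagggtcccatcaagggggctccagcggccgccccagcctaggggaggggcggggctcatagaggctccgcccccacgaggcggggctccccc
These lie at chr16:45158579-45158784 on the plus strand, chr10:44268089-44268338 on the plus strand, chr6:114670846-114671095 on the plus strand and chr11:50210828-50211070 on the minus strand. The first base of the core lay at -94 and -71 in *Atg3*, at -14 in *Atg5* and at -132 in *Atg7*, counted from the RefSeq start site. The *Atg7* window belongs to a RefSeq start inside the gene, whose annotated first base on the plus strand of chromosome 6 is 114643097, so it is not upstream of the whole gene as those of *Atg3* and *Atg5* are. The *Sqstm1* window held none. The antioxidant response core TGACNNNGC, searched on both strands, was in 3 of the 30 genes (10%; *Atg13*, *Map1lc3b* and *Ulk2*) against 14% of all genes, and the FoxO core GTAAACA, searched on both strands, was in 0 of 30 against 4.05%. CACGTG and TGACNNNGC can share the letters TG, but no member window held both. A match describes these letters only.

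No member passed the test between LRCs and non-LRCs in the paired edgeR quasi-likelihood test at an adjusted p below 0.05 over all genes, a threshold that 1.28% of the 13728 genes (176) passed, 124 of them higher and 52 lower in LRCs. At an unadjusted p below 0.05, 5 members were higher in LRCs against a background of 8.89% of all genes, and 3 were lower against 9.53%. The 5 were *Sqstm1*, *Wipi2*, *Uvrag*, *Ulk1* and *Atg16l2*, and the 3 were *Gabarap*, *Atg3* and *Atg4a*. DESeq2 with the same pairing called 8 members. *Sqstm1*, *Wipi2*, *Uvrag* and *Ulk1* rose in LRCs by this test, in which 5.97% of all genes rose, and *Gabarap*, *Atg3*, *Atg4a* and *Atg9b* fell, as did 5.97% of all genes. limma-voom with the pairing called *Sqstm1* as higher (background 5.22%) and *Gabarap* and *Atg3* as lower (background 4.69%). The calls therefore depended on the tool, and the values by library are given for each of these genes.

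Across the 36 members the differences lay on both sides of 0, as the plot of fitted differences by role shows. The fitted log2 fold change (LRC minus non-LRC) was above 0 for 21 members (58.3%, against 44% of all genes) and below 0 for 15 (41.7%, against 56%), with a median of 0.05 against -0.10 over all genes tested. It lay within 0.5 of 0 for 21 members (58.3%, against 54.5% of all genes). Higher in LRCs in all 3 experiments were 9 members, or 25%, against 20.4% of all genes. Lower in all 3 were 10 members, or 27.8%, against 26.1%. In 4 members every LRC library lay above every non-LRC library (background 8.41%), and in 4 every LRC library lay below (background 10.3%). The former were *Sqstm1*, *Uvrag*, *Ulk1* and *Atg16l2*. The latter were *Atg3*, *Atg4a*, *Atg10* and *Atg9b*, with narrow gaps for *Atg3* and *Atg10* and *Atg9b* near the limit of detection.

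**Figure D1:**
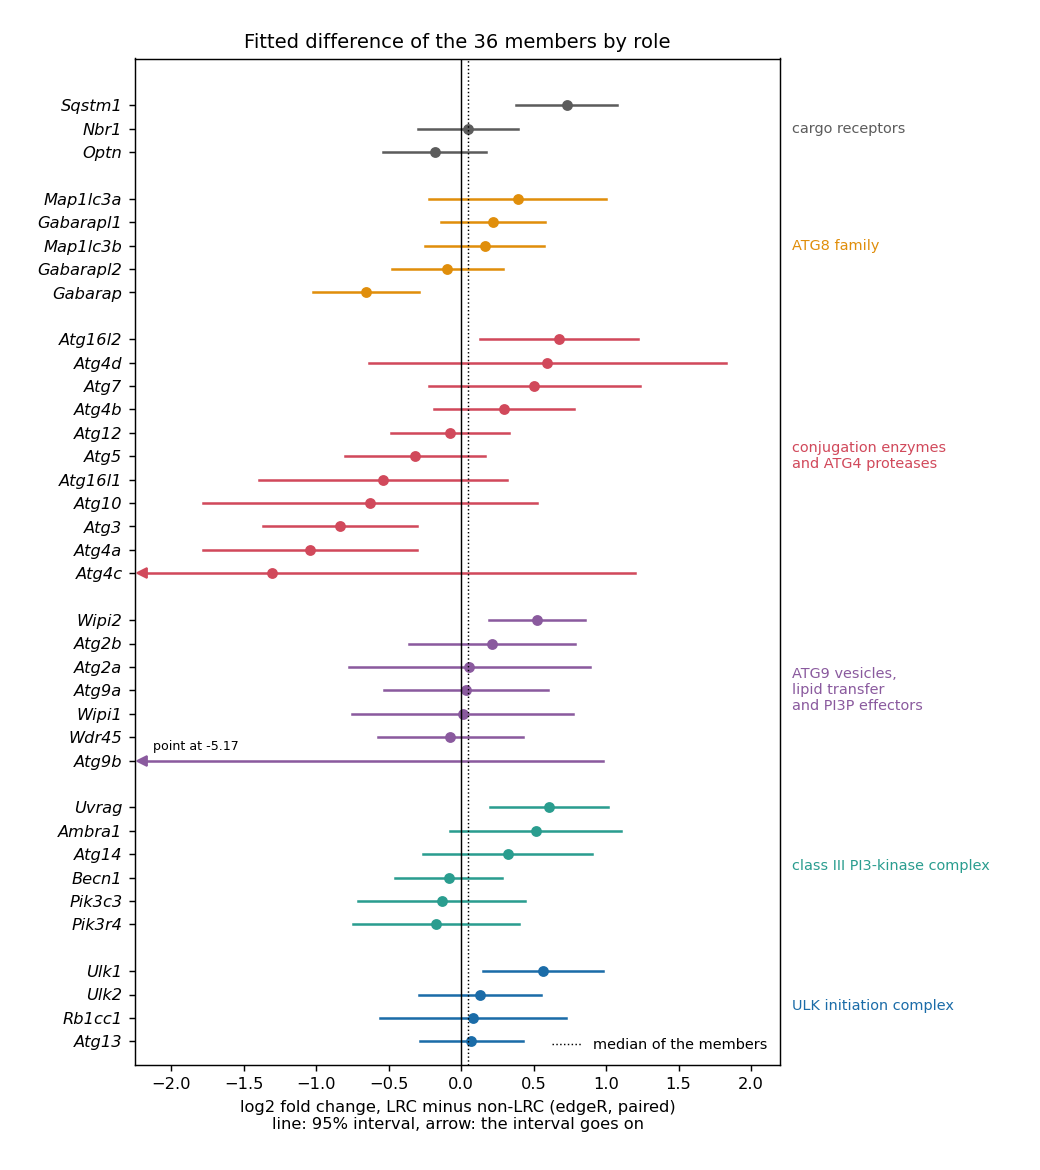
Fitted log2 fold change (x axis, LRC minus non-LRC, edgeR with the experiment as a block) of the 36 members (y axis), grouped by role, with 95% intervals as lines. The dotted line is the members' median, 0.05. The interval lies above 0 for *Sqstm1*, *Wipi2*, *Uvrag*, *Ulk1* and *Atg16l2* and below 0 for *Gabarap*, *Atg3* and *Atg4a*. Arrows mark intervals that run on to the left, for *Atg4c* and for *Atg9b*, whose point lies outside at -5.17.

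The libraries set limits that apply to every member. Total counts ranged from 18943789 to 129559872 per library. The smallest, that of LRCs in experiment 2, stood apart, with 1731 of the tested genes at 0, against 4 to 365 in the others. In the sorted cells the chondrocyte markers were at high levels, with *Col2a1* taking 7.003% to 17.4% of all counts. The 8 markers summed to 80447 to 223368 CPM in LRCs and 132614 to 229805 CPM in non-LRCs. Their fitted values were lower in LRCs for 7 and higher for 1, and 0 passed the edgeR test. Of the resting zone markers, 5 of 5 were higher in LRCs and 4 passed the edgeR test. The paper lists all 5 as higher in LRCs from these same libraries, so this is no independent check. Of the prehypertrophic and hypertrophic markers, 6 of 6 were lower in LRCs and 2 passed. Their summed levels were 118 to 374 CPM in LRCs against 319 to 1448 CPM in non-LRCs. Among them, *Ihh*, *Col10a1* and *Mef2c* were named in the paper as higher in non-LRCs from the same libraries. Superficial articular and synovial markers summed to 169 to 1219 CPM in LRCs and 69.5 to 115 CPM in non-LRCs. Of 5 tested, 4 were higher in LRCs and 1 lower, with *Prg4* called as higher (1017, 109 and 869 CPM in LRCs). The paper detected *Prg4* RNA at a low level in the resting zone itself. By its counts, nearly all tdTomato-positive cells released by the digestion came from the growth plate. Osteoblast markers summed to 1499 to 3363 CPM and 1478 to 2479 CPM, most of it *Col1a2*. They went both ways, with 3 of 7 higher in LRCs (*Col1a1* called) and 4 lower (*Bglap*, *Bglap2*, *Sp7* and *Alpl*, not called). From the same libraries, the paper lists *Sp7* as higher in non-LRCs, among markers of proliferating and pre-hypertrophic chondrocytes. It is thus not a marker of osteoblasts alone. Skeletal muscle markers (6.87 to 11.04 CPM and 9.34 to 15.1 CPM, *Myh2* at 0), leukocyte and erythroid markers (8.36 to 23.8 CPM and 6.72 to 13.8 CPM, *Hba-a1* and *Hba-a2* at 0) and osteoclast markers (102 to 119 CPM and 102 to 158 CPM) overlapped between the groups. The part of these other cell types in the members' differences was not tested, and in bulk libraries fewer cells of a type and less RNA per cell cannot be told apart.

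Cargo receptors bind ubiquitin-tagged or other cargo and, through LC3 and GABARAP, the autophagosome membrane. *Sqstm1* encodes p62, which is itself degraded by autophagy and whose gene is a known target of NRF2. Its level in experiments 1, 2 and 3 (the order used throughout) was 1705, 1860 and 1556 CPM in LRCs and 1110, 1022 and 956 CPM in non-LRCs, where CPM are TMM-normalized counts scaled to a common library size. The lowest LRC library thus lay well above the highest non-LRC library. The fitted log2 fold change was 0.73 (SE 0.14, 95% interval 0.38 to 1.08), with an adjusted p of 0.0761 in edgeR, 4.55e-06 in DESeq2 and 0.00515 in limma-voom. Without experiment 2, which holds the library that stands apart, it was 0.66 with an adjusted p of 0.0497, and without experiments 1 and 3 in turn it was 0.78 and 0.76 with adjusted p of 0.235 and 0.173. The gene lies on chromosome 11 and shares 17.3% of its exonic bases with *Mrnip* on the opposite strand, so reads there cannot be assigned without the strand. Other members have such overlaps too. *Wdr45* shares 24.7% with *Gm45208* on the same strand, and *Atg4d* 19.3% with *Kri1* on the opposite strand. *Atg9a* shares 32.6%, *Gabarapl1* 28.3% and *Uvrag* 17.6% with other annotated genes.

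The other 2 receptors had smaller differences. *Nbr1*, a receptor that also acts on peroxisomes, was at 137, 80.4 and 139 CPM in LRCs and 119, 84.2 and 140 CPM in non-LRCs, with a fitted log2 fold change of 0.04. *Optn* (optineurin, a receptor in mitophagy) was at 50.8, 63.2 and 62.9 CPM in LRCs and 58.5, 69.8 and 72.5 CPM in non-LRCs. It was slightly lower in each pair, at -0.18 (SE 0.15, adjusted p 0.561). Per kilobase of transcript, *Sqstm1* had the highest level of all members, with a mean over libraries of 512 CPM per kb, against 24.3 for *Nbr1* and 24.1 for *Optn*.

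The ATG8 family provides the proteins that are joined to lipid on the membrane, in an LC3 branch and a GABARAP branch. *Gabarap*, for the founding protein of the second branch, was at 138, 287 and 171 CPM in LRCs and 257, 429 and 240 CPM in non-LRCs. It was lower in LRCs within each pair, while the groups overlapped because both libraries of experiment 2 were high. The fitted log2 fold change was -0.66 (SE 0.15, interval -1.02 to -0.29), with adjusted p of 0.0969 in edgeR, 0.00159 in DESeq2 and 0.0161 in limma-voom.

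The 4 other members of the family gave smaller differences, none with an adjusted p below 0.46 in edgeR. *Map1lc3b*, for LC3B, the usual marker protein of autophagosomes, was at 367, 735 and 415 CPM in LRCs and 320, 535 and 466 CPM in non-LRCs, with a fitted log2 fold change of 0.16 (SE 0.17). *Map1lc3a*, for LC3A, was at 53.2, 177 and 55.5 CPM against 55.3, 83.0 and 50.3 CPM, and its value of 0.39 (SE 0.25) came to 0.04 without experiment 2. *Gabarapl1* (152, 147 and 122 CPM against 152, 113 and 101 CPM) had 0.22 (SE 0.15). *Gabarapl2*, also known as GATE-16 (95.3, 219 and 116 CPM against 120, 195 and 126 CPM), had -0.10 (SE 0.16), and 0.02 without experiment 1.

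The make-up of the family therefore differed between the groups, as the stacked plot by library shows. *Gabarap* made 23.8%, 24.6% and 26.9% of the family's summed level per kilobase in LRCs and 36.9%, 41.1% and 33.4% in the paired non-LRCs. *Gabarap* minus *Gabarapl1*, as a difference of their log2 differences, was -0.90, -0.96 and -0.76 in the 3 experiments, and it was also below 0 in each experiment against *Map1lc3a*, *Map1lc3b* and *Gabarapl2*. This comparison was made after the values were seen and is a description. The family's summed level was higher in experiment 2 (862 CPM per kb in LRCs and 773 in non-LRCs) than in experiments 1 and 3 (429 to 530 in all 4 libraries), and the groups overlapped.

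**Figure D2:**
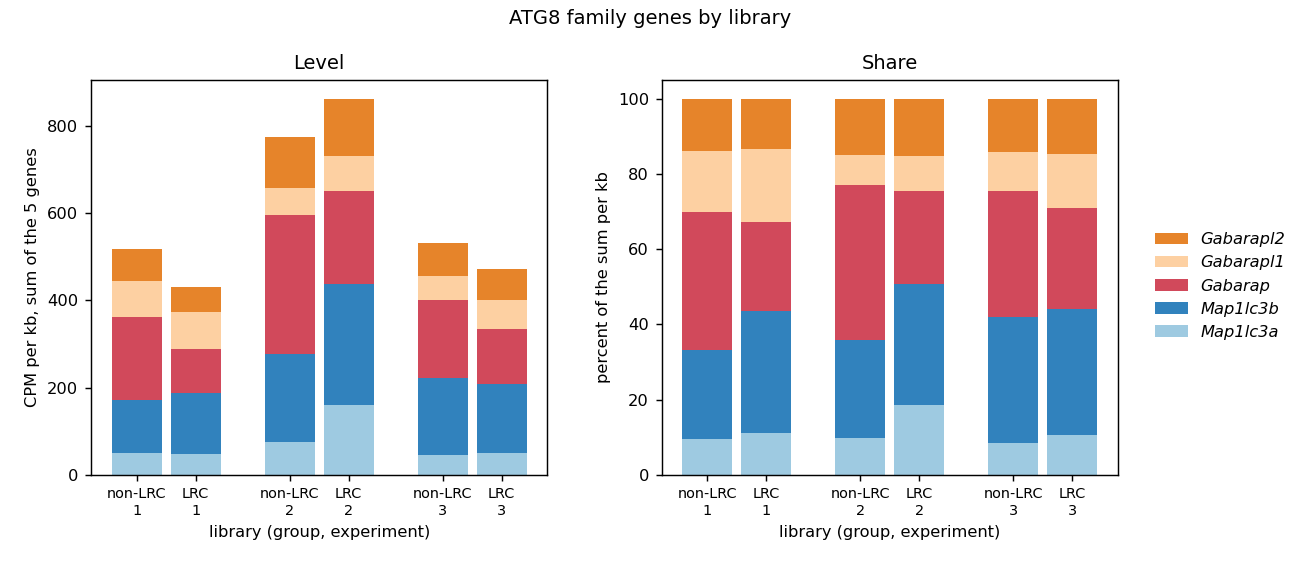
ATG8 family genes in the 6 libraries (x axis, group and experiment), as CPM per kilobase of transcript stacked over the 5 genes (left) and as percent of that sum (right). *Gabarap* (red) takes 23.8% to 26.9% of the sum in LRC libraries and 33.4% to 41.1% in non-LRC libraries.

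Of the 11 genes for conjugation and ATG4 proteases, 7 had fitted values below 0, and the median of the 11 was -0.32. Relative to the median of all genes, 6 of the 11 lay below it, both before and after removal of the length and GC trend described further on. *Atg3* encodes the E2-like enzyme that passes LC3 and GABARAP to lipid. It was at 39.3, 35.5 and 59.3 CPM in LRCs and 60.2, 92.5 and 85.1 CPM in non-LRCs. The groups did not overlap, though the highest LRC library came within 1 CPM of the lowest non-LRC library. The fitted log2 fold change was -0.84 (SE 0.22), with adjusted p of 0.125 in edgeR, 0.0105 in DESeq2 and 0.0316 in limma-voom. *Atg4a*, for a protease that primes GABARAP proteins, was at 11.3, 7.50 and 12.4 CPM in LRCs and 14.995, 20.2 and 30.6 CPM in non-LRCs, again without overlap. Its log2 fold change was -1.04 (SE 0.30), with adjusted p of 0.153 in edgeR and 0.0336 in DESeq2.

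*Atg16l2* was the member of this group with the most even difference in the other direction. It is a paralog of *Atg16l1*, which scaffolds the ATG12-ATG5 conjugate, and its own role is less clear. It was at 16.5, 23.04 and 26.2 CPM in LRCs and 10.9, 14.0 and 16.0 CPM in non-LRCs, so that the groups stood just apart, with a log2 fold change of 0.68 (SE 0.22) and an adjusted p of 0.192 in edgeR and 0.0811 in DESeq2. *Atg16l1* itself had -0.54 (SE 0.35), which came from experiment 2, with differences of 0.06, -1.52 and -0.22 in the 3 experiments. Without experiment 2 it was -0.08.

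*Atg10* (the E2-like enzyme for ATG12) and *Atg4c* (another ATG4 protease) rested on the same library. Their fitted values of -0.63 and -1.31 became -0.11 and -0.21 without experiment 2, where the LRC library held 63 counts of *Atg10* and 3 counts of *Atg4c*. *Atg10* was at 6.96, 3.01 and 7.33 CPM in LRCs and 7.75, 9.92 and 7.71 CPM in non-LRCs, so its groups stood only just apart. *Atg7*, the E1-like enzyme of both conjugation reactions, was at 15.6, 9.85 and 14.8 CPM in LRCs and 10.2, 5.58 and 14.0 CPM in non-LRCs, higher in each pair with 0.50 (SE 0.30, adjusted p 0.429). *Atg5* was lower in each pair, by 0.06, 0.37 and 0.53 on the log2 scale in turn, with a fitted value of -0.32 (SE 0.20). *Atg12* had -0.08, *Atg4b*, for the main LC3-processing protease, 0.29, and *Atg4d* 0.59 with an SE of 0.50. Of the 3 genes with CACGTG in a printed window, *Atg3* and *Atg5* had values below 0 and *Atg7*, whose window lies at the internal start, above 0. *Atg5* and *Atg7* passed the test in none of edgeR, DESeq2 and limma-voom. With the length and GC trend described further on removed, *Atg5* was at 0.10, or -0.0098 relative to the median of all genes.

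The ULK initiation complex had 4 members with fitted values above 0 and a median of 0.11. *Ulk1*, its kinase and a target of both mTORC1 and AMPK, was at 54.3, 46.4 and 43.5 CPM in LRCs and 34.3, 33.6 and 29.6 CPM in non-LRCs. All LRC libraries lay above all non-LRC libraries. The log2 fold change was 0.56 (SE 0.17), with an adjusted p of 0.162 in edgeR and 0.0458 in DESeq2. The second kinase, *Ulk2*, had 0.13 (SE 0.17), and the scaffold *Atg13* had 0.07 (SE 0.15). *Rb1cc1*, for the scaffold FIP200, had 0.08 (SE 0.26) from differences of 0.68, -0.64 and 0.19, and the value was -0.23 without experiment 1.

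Of the 6 class III PI3-kinase complex members, 3 had values above 0 and 3 below, with a median of 0.12, and 1 had an unadjusted p below 0.05. *Uvrag*, a subunit of the complex that acts in endosome traffic and autophagosome maturation, was at 68.0, 105 and 84.8 CPM in LRCs and 48.9, 56.5 and 62.1 CPM in non-LRCs. The groups did not overlap. Its log2 fold change was 0.61 (SE 0.17), with an adjusted p of 0.138 in edgeR and 0.0245 in DESeq2. *Ambra1*, which binds Beclin 1 and has roles in the cell cycle as well, was at 37.0, 23.1 and 21.7 CPM against 28.1, 11.8 and 19.1 CPM, higher in each pair but with overlapping groups, at 0.51 (SE 0.24, adjusted p 0.330). *Atg14*, the subunit that directs the complex to autophagy, was higher in each pair too, at 0.32 (SE 0.24). The lipid kinase *Pik3c3* had -0.13 (SE 0.24), its partner *Pik3r4* -0.18 (SE 0.23) and *Becn1* -0.09 (SE 0.15). *Becn1* shares 43.9% of its exonic bases with *Cntd1* on the opposite strand.

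Of the lipid supply and PI3P effector genes, *Wipi2* was among the most even of all members across experiments. It encodes the PI3P-binding protein that recruits ATG16L1 to the membrane. It was at 143, 96.8 and 102 CPM in LRCs and 97.3, 67.8 and 72.2 CPM in non-LRCs. The within-pair log2 differences were 0.55, 0.51 and 0.50, while the groups overlapped by less than 1 CPM. The fitted value was 0.52 (SE 0.14), with an adjusted p of 0.125 in edgeR and 0.0129 in DESeq2. *Wipi1*, its paralog, had differences of -0.76, 0.82 and -0.02 and a fitted value of 0.01 (SE 0.31). *Atg2a* and *Atg2b*, the lipid transfer proteins, had 0.06 (SE 0.34) and 0.21 (SE 0.24), the scramblase *Atg9a* had 0.03 (SE 0.23) and *Wdr45*, for WIPI4, had -0.08 (SE 0.20).

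*Atg9b*, the second ATG9 gene, was near the limit of detection. Experiments 1, 2 and 3 gave 0, 0 and 14 counts for LRCs and 126, 35 and 32 counts for non-LRCs, or 0, 0 and 0.326 CPM against 1.22, 0.916 and 0.644 CPM. With 3 counts per library as the upper limit, the 0 in experiment 1 allows at most 0.0257 CPM and that in experiment 2 at most 0.143 CPM, counting error only. Both limits lie below the paired non-LRC levels. The adjusted p was 0.344 in edgeR and 0.0466 in DESeq2, and the fitted fold change depends on the prior count.

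**Figure D3:**
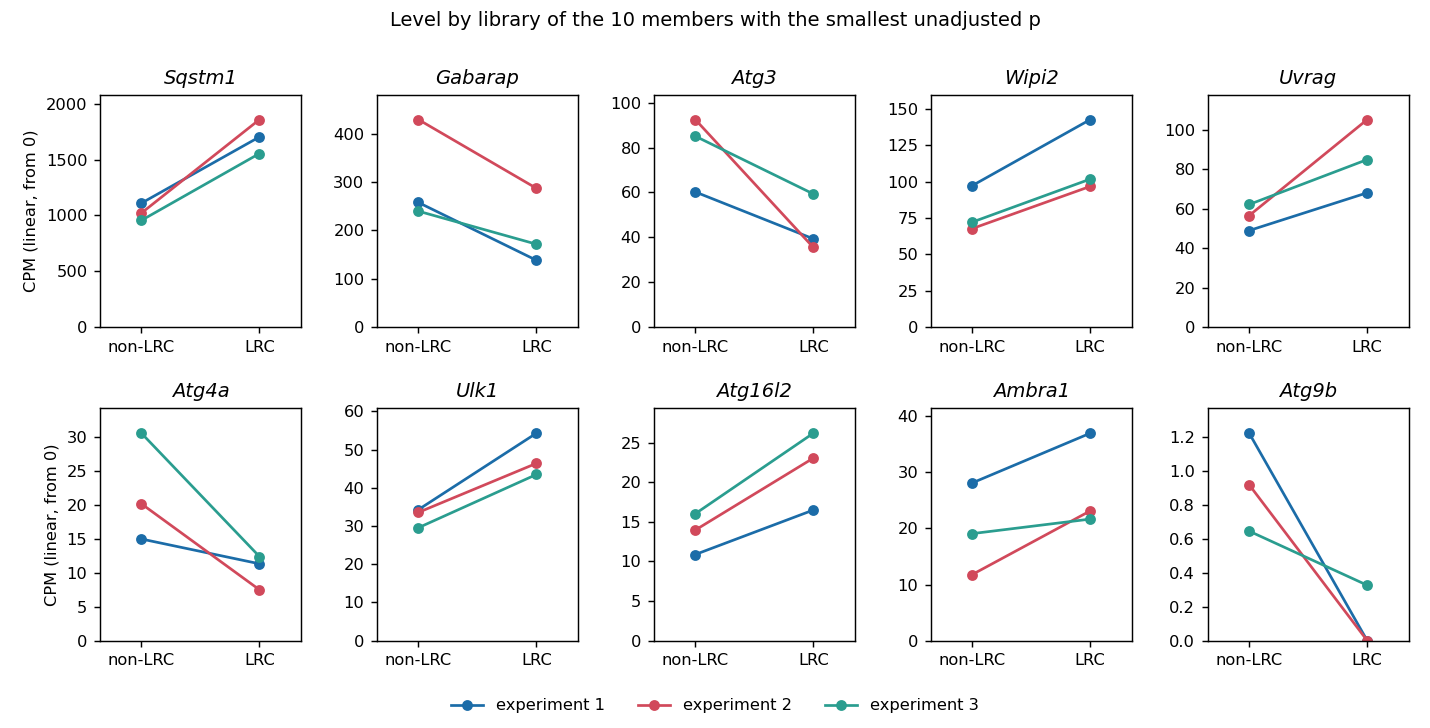
Level (y axis, CPM, linear from 0) in non-LRC and LRC libraries (x axis) of the 10 members with the smallest unadjusted p, with a line joining the libraries of 1 experiment. *Sqstm1*, *Wipi2*, *Uvrag*, *Ulk1*, *Atg16l2* and *Ambra1* are higher and *Gabarap*, *Atg3*, *Atg4a* and *Atg9b* are lower in the LRC library of all 3 pairs.

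**Figure D4:**
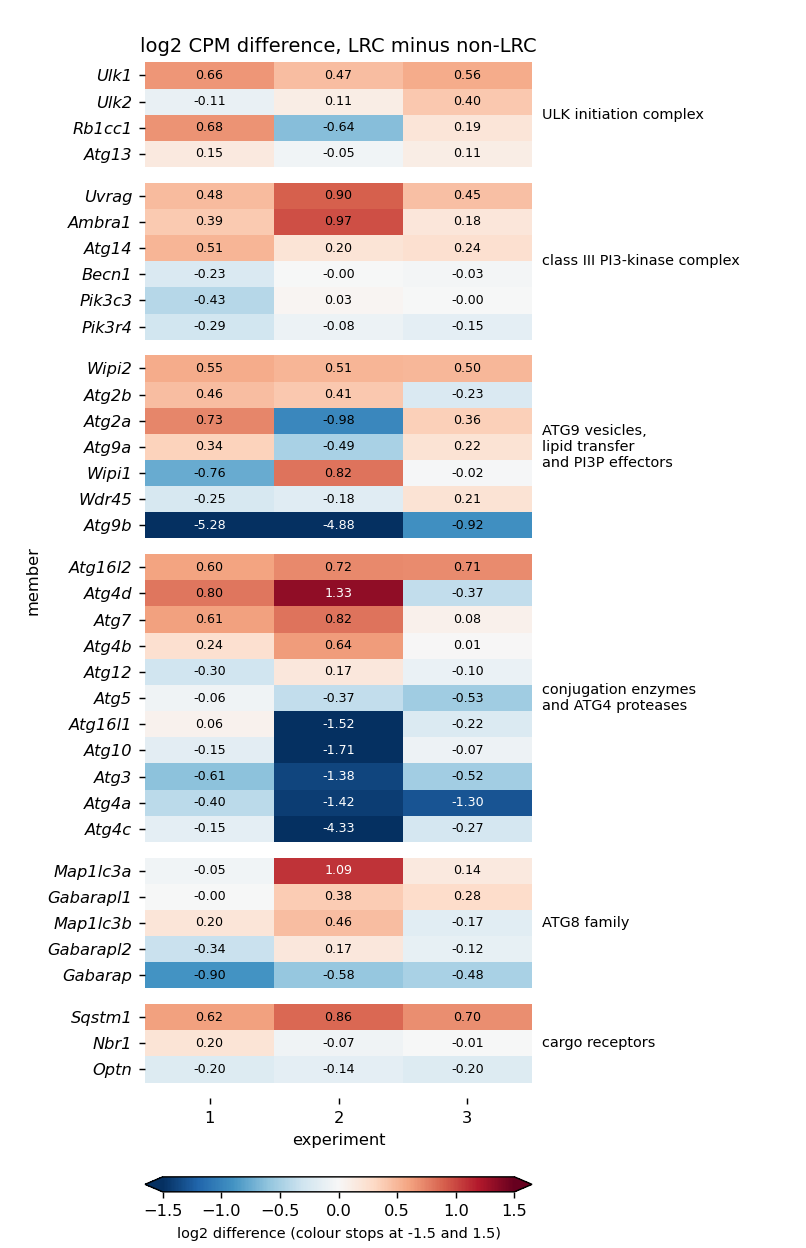
Log2 CPM difference (LRC minus non-LRC, printed in each cell and coloured from -1.5 in blue to 1.5 in red) of the 36 members (y axis, by role) in experiments 1, 2 and 3 (x axis). *Wipi2* has nearly the same value in each experiment, 0.50 to 0.55, while *Atg4c*, *Atg10* and *Atg16l1* are far below 0 in experiment 2 alone.

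The difference between LRCs and non-LRCs moved with transcript length in these amplified libraries, among the members and, in experiments 1 and 3, among all genes. The Spearman rho of the log2 difference with length was 0.25, 0.02 and 0.31 in experiments 1, 2 and 3 over 13566 genes. Over the 36 members, which share these libraries and their depth, it was 0.60, 0.27 and 0.37. With GC content, rho was 0.06, 0.16 and 0.08 over the 13566 genes and 0.31, 0.36 and 0.29 over the members. *Gabarap*, *Atg3* and *Atg4a*, of 1351, 2057 and 2202 bases, are among the shorter members, and *Ulk1*, *Wipi2* and *Uvrag*, of 5213, 5171 and 5157 bases, among the longer. *Sqstm1*, of 2673 bases, lies apart from the trend in all 3 panels of the plot of length. Removing a fitted trend with length and GC content, an alternative chosen after the data were seen, moved the median of all genes up by 0.21, so values are given relative to it. *Gabarap* then lay at -0.34 relative to the median of all genes, against -0.56 before. Its trend-removed log2 fold change itself was -0.23, with an adjusted p of 0.618 for the edgeR test against 0. The adjusted p of the next genes likewise belong to that fold change, not to the relative value. The relative values were -0.50 against -0.74 for *Atg3* (adjusted p 0.437) and -0.67 against -0.95 for *Atg4a* (0.486). They were 0.34 against 0.66 for *Ulk1* (0.439), 0.38 against 0.62 for *Wipi2* (0.375) and 0.50 against 0.70 for *Uvrag* (0.3945). For *Atg16l2*, of 6459 bases, they were 0.53 against 0.77 (0.418), and for *Sqstm1* 0.74 against 0.83 (0.109). The members' median relative to that of all genes came to 0.02, against 0.15 before. The parts of length and GC content in the differences were not tested further.

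**Figure D5:**
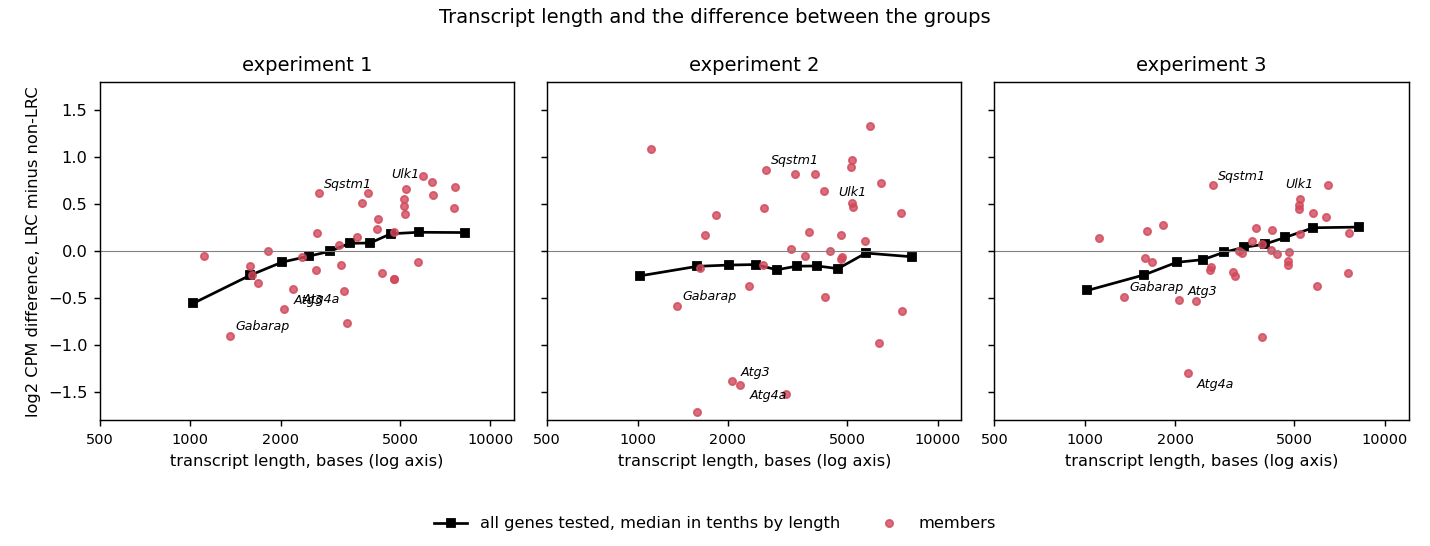
Transcript length (x axis, bases, log axis) against the log2 CPM difference (y axis, LRC minus non-LRC) in each experiment, for the members (red points) and as medians of all genes tested in 10 bins of length (black line). *Gabarap*, *Atg3* and *Atg4a* lie below 0 at the shorter end in each experiment, and *Sqstm1* lies above the line in each. *Atg9b* in experiments 1 and 2 and *Atg4c* in experiment 2 lie below the range drawn.

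Lists of autophagy regulators and of further fusion, receptor and autophagosome genes were read from the same fit, and none of these genes passed the edgeR test. Of the 71 genes tested, 11 (15.5%) had an unadjusted p below 0.05 with values above 0, against 8.89% of all genes, and 4 (5.63%) with values below 0, against 9.53%. DESeq2 called *Foxo1*, *Rragc*, *Pink1* and *Calcoco1* as higher (5.63%) and *Deptor*, *Bnip3* and *Sh3glb1* as lower (4.23%), against 5.97% of all genes in each direction. Of the MiT/TFE and FoxO transcription factors, 6 were tested, 3 with values above 0. *Foxo1*, for a factor that controls autophagy and stress genes, was at 517, 308 and 420 CPM in LRCs and 226, 183 and 146 CPM in non-LRCs, without overlap, at 1.16 (SE 0.19, adjusted p 0.0540 in edgeR and 1.12e-07 in DESeq2). *Tfeb* was higher in each pair, at 0.54 (SE 0.24, adjusted p 0.303). Of 25 mTORC1, TSC and AMPK genes, 8 had values above 0 and 17 below, with a median of -0.15. *Deptor*, for an inhibitor of mTOR, had -1.12 (SE 0.30, adjusted p 0.132), and *Rragc*, for a Rag GTPase that brings mTORC1 to the lysosome, had 0.51 (SE 0.14, adjusted p 0.137).

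Of 14 genes for fusion of the autophagosome with the lysosome, 7 had values above 0 and 7 below, led by *Vps18* (0.77, adjusted p 0.177), a subunit shared by the HOPS and CORVET tethers, and *Plekhm1* (0.64, adjusted p 0.212), an adaptor of RAB7. Of 13 mitophagy and ER-phagy genes, 6 had values above 0 and 7 below. *Bnip3*, a hypoxia-induced mitophagy receptor, was at 185, 165 and 267 CPM in LRCs and 271, 499 and 516 CPM in non-LRCs, at -1.03 (SE 0.22, adjusted p 0.0882 in edgeR and 0.000157 in DESeq2). *Pink1*, the kinase that marks damaged mitochondria, had 0.71 (SE 0.20, adjusted p 0.143). Of 13 other receptors and autophagosome genes, 7 had values above 0, with *Calcoco1*, a receptor in ER-phagy, at 0.86 (SE 0.22, adjusted p 0.124) and *Sh3glb1*, for the Beclin 1 partner Bif-1, at -0.50 (SE 0.14, adjusted p 0.145). The medians of these lists were between -0.15 and 0.21, on a scale on which the median of all genes was -0.10.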

How the data were processed

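RNA from FACS-sorted LRCs and non-LRCs (3 libraries each) was amplified and sequenced as single-end reads. Per the labels, the authors' tools included TopHat2 2.0.13, Bowtie2 2.2.1, HTSeq and DESeq2 on mm10 (GRCm38). The annotation and strand setting are not given in the sources used here. The deposited raw counts, unambiguous reads per gene, were the input of all tests. The deposited normalized signal is these counts divided by DESeq2 size factors and served as a check. The deposited log2 values (rlog) were not tested. Intervals of fold changes come from the fit and include the spread between experiments, while floors cover counting error only.

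Counts were fitted in R 4.3.3 with edgeR 4.0.16 (filterByExpr with a minimum count of 10 and total of 15, TMM, experiment as a block, quasi-likelihood test, prior count 0.125, Benjamini-Hochberg over 13728 genes). The block follows the study's paired design. Deviations from group means correlated within experiments 1, 2 and 3 with r = 0.197, 0.288 and 0.336. SE is the size of the fold change over the root of the F statistic. Log2 CPM differences used a prior count of 2. Alternatives were no block, DESeq2 1.42.0, its size factors, 2 other filters, limma-voom (limma 3.58.1), each experiment left out, a prior count of 2, and, added after the data were seen, thinning and removal of a length and GC trend. Code was tested on simulated data. All 36 members matched GENCODE vM21, whose longest coding transcript gave length and GC content.

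Members and lists were chosen with earlier results of these data known. Every member was named, the 10 with the smallest unadjusted p with all values, and the 2 with the smallest p in each further list. Protein sequences were not used here.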

Additional observations from a re-analysis of the deposited data

How the results depend on the processing

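Of 430 values of single members under the alternatives, 408 kept their sign, and 24 members kept it under every one. All 12 others had a fitted value of at most 0.32 in size. Without the replicate block, 1 gene and 0 members were called and the members' median was 0.086, so nearly all calls rested on the pairing. DESeq2 called 1607 genes and 8 members. A minimum of 10 counts in every library gave 751 genes and 2 members (*Sqstm1*, *Gabarap*), without *Atg4c* and *Atg9b*. limma-voom gave 1361 genes, 3 members and a median of 0.092. With each experiment left out in turn, 35 to 782 genes and 0 to 1 members were called, the 35 without experiment 1 and the 782 without experiment 2. With the length and GC trend removed, the median was 0.13, 0 members were called, and 124 genes were called higher and 28 lower, against 124 and 52.

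Signs that changed with 1 experiment left out gave ranges of -0.20 to 0.029 for *Atg12*, -0.31 to 0.55 for *Atg2a*, -0.13 to 0.28 for *Atg9a*, -0.23 to 0.021 for *Gabarapl2*, -0.041 to 0.099 for *Nbr1*, -0.22 to 0.0087 for *Pik3c3*, -0.23 to 0.44 for *Rb1cc1*, -0.20 to 0.0090 for *Wdr45* and -0.39 to 0.39 for *Wipi1*. *Wipi1* was -0.14 in limma-voom and -0.0014 after thinning. With the length and GC trend removed, *Atg12* was 0.12, *Atg2a* -0.12, *Atg5* 0.10, *Atg9a* -0.0039, *Becn1* 0.12, *Gabarapl2* 0.38, *Optn* 0.040, *Pik3c3* 0.10 and *Wdr45* 0.24; relative to the median of all genes, 3 members changed sign. The causes were not tested. The depth of the LRC library of experiment 2, where 1 count is 0.0478 CPM, limits *Atg9b* and *Atg4c*.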
